A study of Mus musculus with 13 samples.

Results

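The genes of MHC class I antigen presentation were followed through spontaneous immortalization of mouse embryonic fibroblasts (MEFs). The 10 members were set by symbol and found in the gene rows of both deposited count tables, 10 of 55487 genes: the heavy chains H2-K1 and H2-D1, the light chain B2m, the peptide transporter and loading genes Tap1, Tap2 and Tapbp, the transactivator Nlrc5, and the immunoproteasome subunits Psmb8, Psmb9 and Psmb10. Poly-A RNA of 13 cultures was sequenced: WT primary MEFs of clones 3, 4 and 5, the immortalized line grown from each, Prkd3-/- primary MEFs of clones 13, 14 and 15, and the Prkd3-/- immortalized lines 13, 13a, 14 and 15. MEFs of both genotypes were grown in 10% FCS, passaged to senescence and then moved to 20% FCS, and the colonies that grew out gave the lines. After immortalization the lines were expanded and grown in 10% FCS again. Each line is thus the outgrowth of a culture through senescence, and lines 13 and 13a carry the number of the same clone; how the Prkd3 allele was made, the strain and the age of the embryos are not given in the sources used here. The question was whether the level of these genes differed between the primary and the immortalized state within each genotype, and how it varied from line to line.

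MHC class I molecules show peptides of the cell's own proteins to cytotoxic T cells. The immunoproteasome subunits replace the catalytic subunits of the constitutive proteasome and change which peptides are cut, the Tap1 and Tap2 transporter carries peptides into the endoplasmic reticulum, tapasin (Tapbp) holds empty class I molecules at that transporter, and the heavy chain leaves for the surface together with B2m. In fibroblasts these genes are expressed at a basal level and are induced by interferon, with Nlrc5 acting on their promoters.

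All positions are of GRCm38. Within the MHC region of chromosome 17 lie Tapbp (33915899 to 33929292), H2-K1 (33996017 to 34000347), Psmb9 (34181987 to 34187764), Tap1 (34187553 to 34197225), Psmb8 (34197721 to 34201454), Tap2 (34203527 to 34216321) and H2-D1 (35262730 to 35267499). B2m is on chromosome 2 (122147686 to 122153083), and Nlrc5 (94434356 to 94527272) and Psmb10 (105935735 to 105938444) are on chromosome 8. Promoter sequences, each of 300 bases around a transcription start, were at hand from RefSeq (GRCm38.p6) for 8 of the 10 genes, all but Tap2 and Nlrc5. A few of them are printed 5′ to 3′ on the strand of the gene as examples. The heavy chains are shown for their likeness and Tap1 for the stretch it shares with Psmb9. B2m and Psmb8 each hold a match, to the exact letters searched, that none of the other genes had. Capitals mark the kappaB site of the class I enhancer (in full in H2-K1 and H2-D1), the core of the interferon-stimulated response element (in B2m, where its middle pair of bases may be any), the gamma-activated site TTCNNNGAA and the cyclic AMP response element core TGACG, searched on both strands.
H2-K1, chr17:34000284-34000583, minus strand: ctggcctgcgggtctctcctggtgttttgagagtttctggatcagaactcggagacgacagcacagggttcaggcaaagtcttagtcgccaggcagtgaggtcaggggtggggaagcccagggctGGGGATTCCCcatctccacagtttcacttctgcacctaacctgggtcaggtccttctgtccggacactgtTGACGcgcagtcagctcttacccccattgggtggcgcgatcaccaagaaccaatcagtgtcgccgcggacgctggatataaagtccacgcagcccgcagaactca
H2-D1, chr17:35262844-35263143, plus strand: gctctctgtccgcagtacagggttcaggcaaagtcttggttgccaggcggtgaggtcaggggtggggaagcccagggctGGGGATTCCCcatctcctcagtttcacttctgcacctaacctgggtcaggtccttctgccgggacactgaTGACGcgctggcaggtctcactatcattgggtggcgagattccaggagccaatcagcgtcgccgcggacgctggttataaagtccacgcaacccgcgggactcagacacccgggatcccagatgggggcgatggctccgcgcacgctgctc
B2m, chr2:122147437-122147736, plus strand: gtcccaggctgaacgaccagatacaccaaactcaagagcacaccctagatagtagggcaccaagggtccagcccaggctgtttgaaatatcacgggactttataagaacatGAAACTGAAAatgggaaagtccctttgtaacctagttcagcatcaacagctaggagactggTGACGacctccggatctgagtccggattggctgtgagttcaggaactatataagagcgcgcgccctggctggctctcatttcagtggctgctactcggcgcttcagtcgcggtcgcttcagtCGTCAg
Tap1, chr17:34187306-34187605, plus strand: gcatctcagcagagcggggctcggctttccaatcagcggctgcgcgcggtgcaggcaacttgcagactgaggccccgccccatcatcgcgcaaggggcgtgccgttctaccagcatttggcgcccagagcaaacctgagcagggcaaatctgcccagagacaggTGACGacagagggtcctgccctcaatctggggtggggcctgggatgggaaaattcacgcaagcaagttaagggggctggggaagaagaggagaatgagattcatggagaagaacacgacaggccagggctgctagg
Psmb8, chr17:34197945-34198244, plus strand: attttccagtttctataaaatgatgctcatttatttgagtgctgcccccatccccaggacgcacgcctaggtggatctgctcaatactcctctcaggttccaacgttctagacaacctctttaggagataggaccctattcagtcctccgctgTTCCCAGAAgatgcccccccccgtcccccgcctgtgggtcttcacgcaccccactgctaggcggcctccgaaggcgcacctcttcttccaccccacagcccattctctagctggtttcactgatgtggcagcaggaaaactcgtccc

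The H2-K1 and H2-D1 promoters are alike in 180 of 254 bases (70.9%) when laid side by side without gaps, and both hold the kappaB site, which 0.107% of 32851 RefSeq promoters of the same length hold. The interferon-stimulated response element core was matched in B2m (3.44% of all promoters) and TTCNNNGAA in Psmb8 (8.30%). TGACG was matched in 5 of the 8 genes (20.8% of all promoters) and CCAAT, left in lower case, in 6 of 8 (37.4%). Tap1 and Psmb9 are read away from each other from a shared stretch: their windows have 275 bases in common, and the TGACG and CCAAT matches of Psmb9 are the same bases as those of Tap1. A match describes letters and is not a measured site. Only these exact letters were searched, so the lack of a match does not show that a looser form of an element is absent, as in the heavy chains.

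The count tables held 35273408 to 100441756 counts per library, so 3 counts, taken as the floor, stand for 0.0299 to 0.0850 CPM; these limits cover counting error only. CPM are counts scaled to a fixed library size, here after TMM normalization of all 13 libraries together. The WT primary libraries were far more alike than the others, with a chi-square per gene of 5.25 to 12.4 between pairs (1 for sampling noise) against 46.7 to 779 within the other groups, and no column was a copy of another. They also held Xist (43.8 to 55.9 CPM) together with transcripts of 4 Y-linked genes (102 to 121 CPM in sum), so the counts do not show that each came from 1 embryo, whereas the Prkd3-/- libraries had Xist at 0.156 CPM or less. WT line 5 held the same mix as the primary libraries (Xist 56.0, Y-linked 120 CPM), while line 3 had Xist at 170 and Y-linked transcripts at 0.387 CPM and line 4 had them at 157 and 58.6 CPM. Prkd3 itself was at 33.6 to 61.0 CPM in the libraries labelled Prkd3-/- and at 69.2 to 93.7 CPM in WT, without overlap, and counts per gene cannot show a deleted exon. Summed fibroblast markers (10 genes, among them Col1a1 and Vim) reached 18585 to 74093 CPM in every library with none at 0. P-values measure the spread between these cultures.

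H2-K1, a classical heavy chain, stood at 69.6, 70.2 and 72.1 CPM in WT primary clones 3, 4 and 5 and at 25.3, 13.5 and 70.9 CPM in the WT lines of the same numbers. WT lines 3 and 4 were below every WT primary library, while line 5 lay within their range. The Prkd3-/- libraries had it at 47.1, 57.2 and 41.9 CPM in primary clones 13, 14 and 15 and at 33.6, 29.6, 15.5 and 18.0 CPM in lines 13, 13a, 14 and 15. All 4 of these lines were below all 3 primary libraries. The Log2FC of immortalized over primary was -0.95 (SE 0.59, adjusted p-value 0.440) in WT and -1.03 (SE 0.30, unadjusted p 0.0103, adjusted p-value 0.609) in Prkd3-/- MEFs by edgeR's quasi-likelihood test over all tested genes.

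H2-D1, the other classical heavy chain, was measured at 140.2, 134.1 and 143.9 CPM in WT primary MEFs. The WT lines 3, 4 and 5 had 58.7, 45.8 and 129.7 CPM, each below every primary library, line 5 by a small step. Prkd3-/- primary clones 13, 14 and 15 gave 72.2, 116.9 and 79.5 CPM and lines 13, 13a, 14 and 15 gave 23.5, 68.3, 45.7 and 30.1 CPM. Here too the groups did not overlap, although line 13a came within a few CPM of primary clone 13. Log2FC was -0.84 (SE 0.40, adjusted p-value 0.321, edgeR) in WT and -1.10 (SE 0.39, unadjusted p 0.0245, adjusted p-value 0.687) in Prkd3-/- cells, and neither gene passed (|Log2FC| of at least 1 with an adjusted p-value under 0.01).

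B2m, the light chain shared by all class I molecules, moved in different directions in different lines. WT primary libraries held 438.3, 433.5 and 435.2 CPM, and lines 3, 4 and 5 held 241.0, 364.0 and 865.5 CPM. Lines 3 and 4 were below the primary range and line 5 was above it, at 1.99 times the level of its own primary library. Prkd3-/- primary libraries were at 320.7, 438.0 and 331.3 CPM and the lines 13, 13a, 14 and 15 at 281.7, 524.1, 303.6 and 341.5 CPM. The groups overlapped in Prkd3-/- cells, with line 13a above and lines 13 and 14 below all primary libraries. The fitted Log2FC was 0.17 (SE 0.47) in WT and -0.01 (SE 0.27) in Prkd3-/- MEFs, with adjusted p-values of 0.877 and 0.997 in edgeR; the WT sign turned with other settings.

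Tap1, an ATP-binding chain of the peptide transporter, was at 35.0, 36.2 and 36.9 CPM in WT primary clones 3, 4 and 5 and at 9.99, 13.7 and 48.6 CPM in their lines. Prkd3-/- primary libraries had 28.8, 31.3 and 22.4 CPM, and lines 13, 13a, 14 and 15 had 2.90, 21.2, 48.7 and 26.8 CPM. The lowest value of the 13 was in Prkd3-/- line 13 and the highest values were in Prkd3-/- line 14 and WT line 5. Tap1 in line 13a, of the same clone number as line 13, was close to the primary level. Log2FC was -0.58 (SE 0.60) in WT and -0.15 (SE 0.74) in Prkd3-/- cells.

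Tap2, the partner chain of Tap1, varied less. It was at 27.9, 27.5 and 29.3 CPM in WT primary MEFs and at 19.7, 16.0 and 34.9 CPM in lines 3, 4 and 5. Prkd3-/- primary MEFs gave 24.5, 20.2 and 18.5 CPM, and lines 13, 13a, 14 and 15 gave 10.6, 20.2, 40.9 and 12.7 CPM. WT line 5 and Prkd3-/- line 14 were above the primary libraries of their genotype, and the other lines were below or, for 13a, within that range. Log2FC was -0.26 (SE 0.30) in WT and -0.002 (SE 0.47) in Prkd3-/- cells.

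Tapbp, which encodes tapasin, followed Tap2. WT primary libraries were at 164.2, 162.7 and 175.3 CPM and WT lines 3, 4 and 5 at 70.4, 102.0 and 182.8 CPM. In Prkd3-/- primary clones 13, 14 and 15 it was at 153.4, 99.1 and 108.4 CPM, and in lines 13, 13a, 14 and 15 at 56.6, 150.8, 292.6 and 72.1 CPM. Line 14 thus had the highest level of all libraries. Its Log2FC was -0.50 (SE 0.35) in WT and 0.25 (SE 0.57) in Prkd3-/- cells. For Tap1, Tap2 and Tapbp the adjusted p-values of edgeR ran from 0.490 to 0.682 in WT and from 0.949 to 0.9998 in Prkd3-/- cells.

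Nlrc5, the transactivator of class I genes, was weakly expressed. It was at 2.44, 2.51 and 2.36 CPM in WT primary libraries and at 0.193, 0.779 and 3.13 CPM in lines 3, 4 and 5, the lowest from 12 counts. Prkd3-/- primary libraries had 1.95, 3.15 and 1.77 CPM, and lines 13, 13a, 14 and 15 had 0.0763, 3.63, 0.563 and 1.52 CPM, the value of line 13 from 4 counts. WT line 5 and Prkd3-/- line 13a were above every primary library of their genotype and the other 5 lines below. Log2FC was -0.83 (SE 0.89, adjusted p-value 0.664, edgeR) in WT and -0.66 (SE 1.00, adjusted p-value 0.912) in Prkd3-/- cells.

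**Figure D1:**
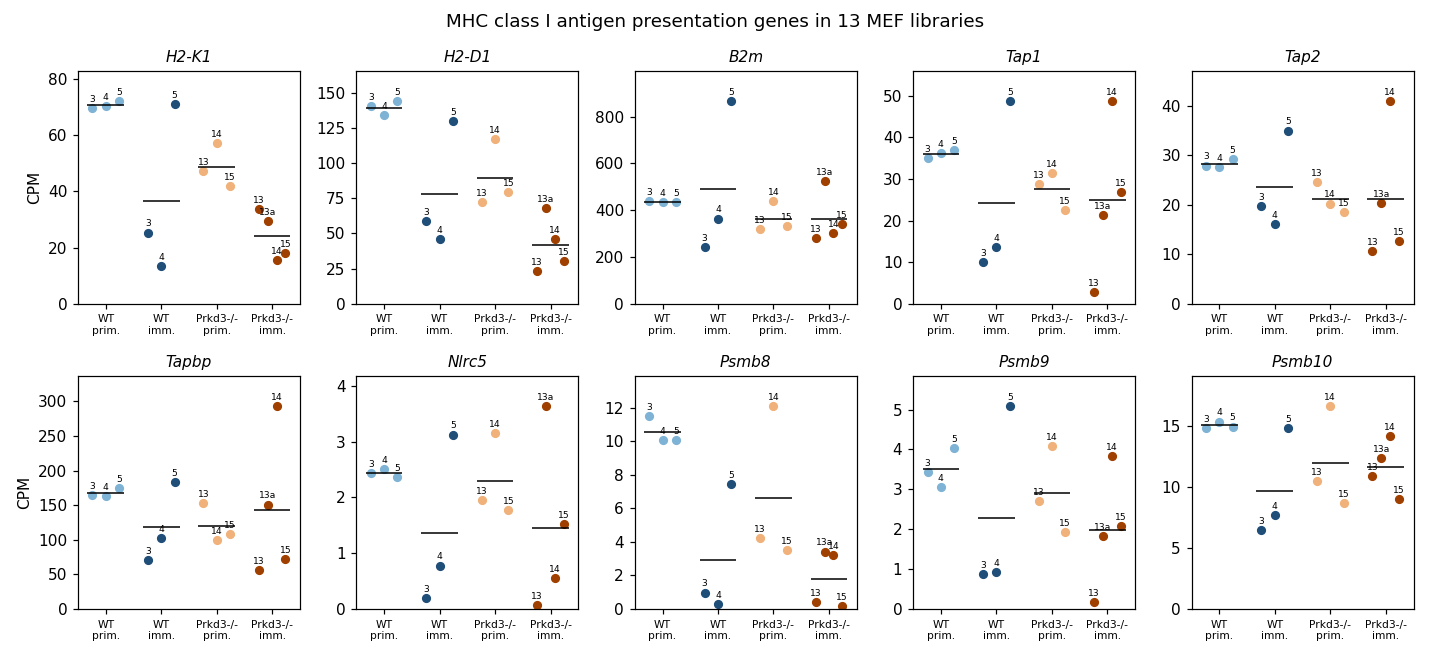
CPM of the 10 class I genes (y axis, from 0, scaled per gene) in the 13 libraries by genotype and state (x axis), with clone or line numbers above the points and group means as bars. WT primary libraries lie close together for each gene, while WT line 5 stands apart from lines 3 and 4, as for B2m with 865.5 against 241.0 and 364.0 CPM.

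Psmb8, the immunoproteasome subunit LMP7, had the most negative Log2FC of the 10 genes in each genotype. It was at 11.5, 10.1 and 10.1 CPM in WT primary clones 3, 4 and 5 and at 0.983, 0.305 and 7.43 CPM in lines 3, 4 and 5. Prkd3-/- primary clones 13, 14 and 15 had 4.24, 12.1 and 3.53 CPM and lines 13, 13a, 14 and 15 had 0.439, 3.43, 3.24 and 0.162 CPM, the last from 12 counts. Every line was below every primary library of its genotype, though lines 13a and 14 were only just below primary clone 15. Log2FC was -1.85 (SE 1.08, adjusted p-value 0.413, edgeR) in WT and -1.87 (SE 1.03, adjusted p-value 0.820) in Prkd3-/- cells, and without Prkd3-/- primary clone 14 the latter was -1.10 (SE 1.13).

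Psmb9, the immunoproteasome subunit LMP2, was at 3.43, 3.05 and 4.04 CPM in WT primary MEFs and at 0.870, 0.931 and 5.08 CPM in lines 3, 4 and 5. Prkd3-/- primary libraries gave 2.71, 4.09 and 1.94 CPM and lines 13, 13a, 14 and 15 gave 0.172, 1.84, 3.83 and 2.08 CPM. Lines 3, 4 and 13 were low and WT line 5 was above the primary libraries. Log2FC was -0.61 (SE 0.73) in WT and -0.56 (SE 0.83) in Prkd3-/- cells. Psmb9 shares 5.79% of its exon bases with Tap1, which was at 35.0 to 36.9 CPM in WT primary MEFs. Read pairs there count for both genes, and the part of Tap1 in the Psmb9 counts was not tested.

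Psmb10, the immunoproteasome subunit MECL-1, was the steadiest of these subunits. It was at 14.86, 15.37 and 14.96 CPM in WT primary libraries and at 6.46, 7.72 and 14.85 CPM in lines 3, 4 and 5. Line 5 lay just under the lowest primary value, by less than the spread of the primary libraries. Prkd3-/- primary libraries had 10.5, 16.6 and 8.67 CPM and lines 13, 13a, 14 and 15 had 10.9, 12.4, 14.2 and 9.01 CPM, all within the primary range. Log2FC was -0.64 (SE 0.32) in WT and -0.05 (SE 0.30) in Prkd3-/- cells, and for Psmb9 and Psmb10 the adjusted p-values of edgeR were 0.701 and 0.354 in WT and 0.909 and 0.986 in Prkd3-/- cells.

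None of the 10 genes passed the thresholds in either genotype by edgeR (WT 0 of 10 called, against 1.82% of the 19836 genes tested, 0.0605% as higher and 1.76% as lower; Prkd3-/- 0 of 10, against 0.0% of 20298), nor by DESeq2 or limma. At an unadjusted p under 0.05 there were 0 of 10 genes in WT, against 19.7% of all genes, and 2 of 10, H2-K1 and H2-D1, in Prkd3-/- cells, against 6.56%. Log2FC was negative for 9 of 10 genes in each genotype, all but B2m in WT and all but Tapbp in Prkd3-/- cells. Their median was -0.62 in WT, where the median over all genes tested was 0.04, and -0.35 in Prkd3-/- cells, where it was 0.07. These summaries moved with single libraries: in Prkd3-/- cells 6 of 10 genes were negative without line 13 (median -0.0946) or without line 15 (median -0.38) and 7 of 10 without primary clone 14 (median -0.13), while the median was -0.62 without line 14 and -0.53 without primary clone 15. The WT median was -0.27 without line 3. With limma all 10 were negative in each genotype, with medians of -0.95 and -0.89. All lines were below all primary libraries for 3 of 10 genes in WT (H2-D1, Psmb8 and Psmb10), against 17.4% of all genes, and for 3 of 10 in Prkd3-/- cells (H2-K1, H2-D1 and Psmb8), against 5.26%. In both genotypes at once this held for H2-D1 and Psmb8, against 2.71% of 19311 genes. No member was above all primary libraries in every line of a genotype, as 13.9% of all genes were in WT and 4.19% in Prkd3-/- cells.

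With the clone number as a block, 0 instead of 361 of all genes passed in WT, and the median Log2FC of the class I genes was -0.97 there and -0.44 in Prkd3-/- cells, again with 0 of 10 called. The WT result rested on line 5, which also differed from lines 3 and 4 in its mix of Xist and Y-linked transcripts; the part of this in the result was not tested. Without it 4 of 10 genes passed as lower (against 3.66% of 20285 genes called, 3.48% as lower): H2-D1 at -1.42 (SE 0.13, adjusted p-value 0.00495), Tap1 at -1.60 (SE 0.16, adjusted p-value 0.00636), Psmb9 at -1.96 (SE 0.20, adjusted p-value 0.00717) and Psmb10 at -1.09 (SE 0.12, adjusted p-value 0.00807), and the median of the 10 was -1.51. Psmb8 at -4.03 (SE 0.54) and H2-K1 at -1.86 (SE 0.29) missed the threshold of 0.01 with adjusted p-values of 0.0158 and 0.0228. That fit set only lines 3 and 4 against the WT primary libraries, which the counts do not show to be separate embryos. Those libraries had a chi-square per gene of 5.25 to 12.4 between pairs, against 409 to 644 between WT lines. The part of this likeness in the small SEs and p-values was not tested. Leaving out any other library of either genotype left 0 of 10 called.

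The change with immortalization was not found to differ between the genotypes. In the interaction over 13 libraries 0 of 10 genes had an adjusted p-value under 0.05 by edgeR (0.0% of 21197 genes), and 0 of 10 had an unadjusted p under 0.05 (3.97% of all genes). DESeq2 and limma also gave 0 of 10 at an adjusted p-value under 0.05. The estimates, Prkd3-/- change minus WT change, ran from -0.26 (SE 0.59) for H2-D1 to 0.75 (SE 0.74) for Tapbp, and SEs up to 1.52 (Psmb8) leave room for large differences. Without WT line 5 all 10 estimates were positive, with a median of 1.11, and again none passed.

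The balance between the immunoproteasome subunits and the constitutive subunits they replace was read as a ratio of RPKM (CPM divided by the length of the gene's exons in kilobases, with 0.1 added to each). Psmb8 stood at 10.2, 9.37 and 10.0% of Psmb5 in WT primary MEFs and at 1.13, 0.600 and 7.95% in lines 3, 4 and 5. The Prkd3-/- ratio stood at 2.14, 4.48 and 1.66% in primary clones 13, 14 and 15 and at 0.264, 1.64, 1.74 and 0.236% in lines 13, 13a, 14 and 15. All WT lines were below all WT primary libraries, while Prkd3-/- line 14 was above primary clone 15. Averaged over the genotypes, the log2 ratio was lower by -2.22 in the lines (WT -2.49, Prkd3-/- -1.95), lower for 6 of 6 clone numbers, with p = 0.0214 in an exact two-sided permutation test within genotypes and 0.0643 after Benjamini-Hochberg adjustment over the 3 ratios.

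That adjusted p crossed 0.05 with the choice of libraries. Without any 1 of the 7 immortalized libraries in turn it was between 0.015 and 0.03, without any 1 of the 6 primary libraries between 0.05 and 0.06, and with lines 13 and 13a summed it was 0.03. In WT alone the exact p was 0.1, the smallest that 20 labelings allow, and in Prkd3-/- cells alone 0.171. With each line set against the primary library of its own clone number the difference was -2.23 with an exact p of 0.0313, the smallest that 6 sign flips allow, and an adjusted p of 0.0938. Both tests take the libraries or clone numbers as independent, which the counts do not show for the WT primary libraries. The permutation within genotypes also counts lines 13 and 13a separately, unless they are summed.

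Psmb9 was at 2.34, 2.13 and 2.65% of Psmb6 in WT primary libraries and at 0.800, 0.776 and 3.16% in lines 3, 4 and 5. The Prkd3-/- primary libraries ranged from 1.19 to 2.04% and the lines from 0.239 to 2.16%, so the groups overlapped in both genotypes. The difference was -0.78 on the log2 scale with an exact permutation p = 0.181 and an adjusted p of 0.181. Psmb10 was at 37.3, 38.6 and 37.6% of Psmb7 in WT primary libraries and at 15.1, 18.5 and 37.0% in the lines. Among Prkd3-/- libraries it ranged from 18.8 to 31.4% in primary libraries and from 16.1 to 26.3% in lines. Its difference was -0.48 with an exact permutation p = 0.0886 and an adjusted p of 0.133, and 0.0386 without WT line 5. The constitutive partners also varied. Psmb6 and Psmb7 were at 71.4 to 115 and 82.9 to 138 CPM in Prkd3-/- lines, with coefficients of variation of 19.3% and 20.5% beside 18.8% for Psmb10, and across WT lines those of Psmb5, Psmb6 and Psmb7 were 8.98, 5.52 and 4.10%. Psmb5 was at 25.9 to 31.0 CPM in WT and at 54.6 to 78.3 CPM in Prkd3-/- libraries, a step between the separately deposited tables that was not tested. Psmb5 shares 12.1% and Psmb7 11.8% of their exon bases with overlapping genes.

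**Figure D2:**
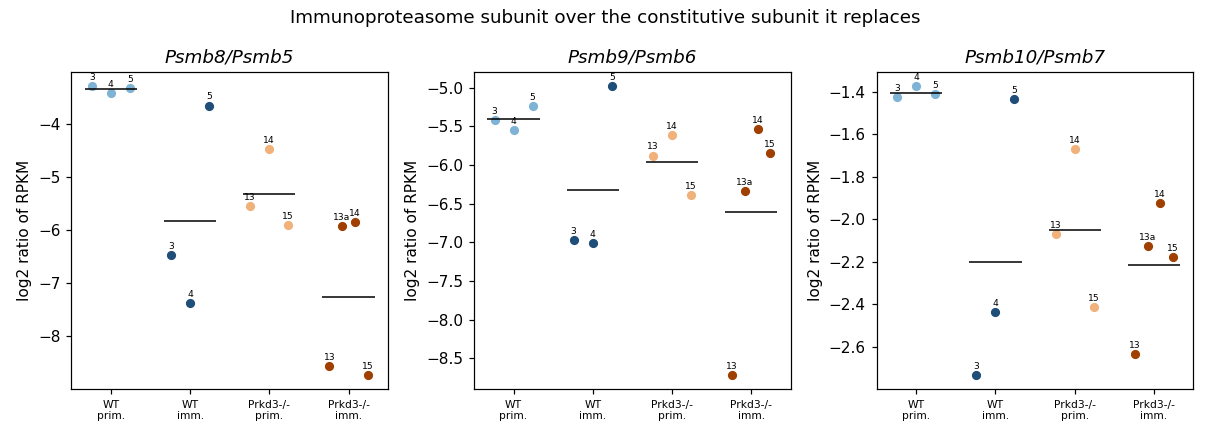
Log2 ratio of RPKM (y axis) of Psmb8 to Psmb5, Psmb9 to Psmb6 and Psmb10 to Psmb7 in the 13 libraries by genotype and state (x axis), with group means as bars. For Psmb8 to Psmb5 WT lines 3 and 4 are at 1.13 and 0.600% and line 5 is at 7.95%, near the WT primary libraries.

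Seen by line, the 10 genes did not move as 1 block. In WT lines 3 and 4 all 10 were below every WT primary library (against 43.1% and 42.7% of all genes, with 41.0% and 40.3% above), with a median log2 ratio to the primary library of the same number of -1.36 and -1.48. In WT line 5, 3 were below (against 42.5%), 1 was within and 6 were above (against 41.0%), with a median of 0.16. Prkd3-/- line 13 had 9 of 10 below (against 40.0%), none above (against 38.1%) and a median of -1.53. Line 13a, of the same clone number, had 5 below, 3 within and 2 above (against 28.7% below and 29.0% above), with a median of -0.18. Line 14 had 5 below, 2 within and 3 above (against 36.5% below and 35.1% above), and line 15 had 6 below and 4 within (against 33.8% below and 35.4% above), both with a median of -0.38.

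Within each Prkd3-/- line the ratio differed from member to member, though lines 13 and 15 had no member above every primary library. In line 14 the ratio to its own primary library was 1.56 for Tapbp, 1.01 for Tap2 and 0.64 for Tap1, but -2.49 for Nlrc5, -1.90 for Psmb8 and -1.89 for H2-K1. Line 13a had its highest ratio in Nlrc5 (0.90) and its lowest in H2-K1 (-0.67). In line 15 the ratio was -4.45 for Psmb8, -1.40 for H2-D1 and -1.22 for H2-K1 beside 0.26 for Tap1 and 0.10 for Psmb9. Line 13 reached -4.67 for Nlrc5, -3.98 for Psmb9 and -3.31 for Tap1, with Psmb10 at 0.06.

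**Figure D3:**
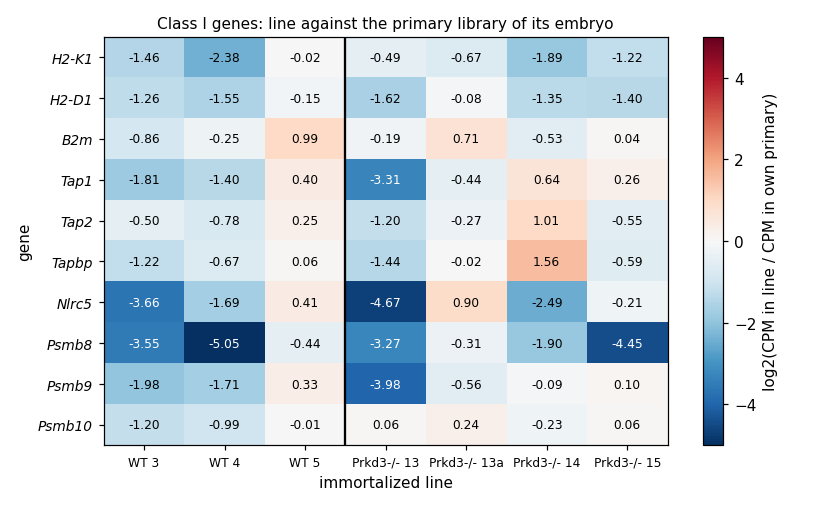
Log2 ratio of CPM in each of the 7 immortalized lines (columns) to the primary library of the same clone number, for the 10 class I genes (rows), with blue for lower and red for higher and the value in each cell. Columns WT 3, WT 4 and Prkd3-/- 13 are blue almost throughout, with Psmb10 in line 13 at 0.06, while WT 5 and Prkd3-/- 14 hold red cells up to 0.99 and 1.56.

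Levels of other cell types moved as well. In bulk libraries fewer cells of a type and less RNA per cell cannot be told apart. The 17 macrophage markers summed to 1971 to 2022 CPM in WT primary libraries and to 119, 75.2 and 195 CPM in WT lines 3, 4 and 5, with none at 0 counts, and 10 of 17 passed as lower in WT (against 1.76% of all genes). In Prkd3-/- primary clones 13, 14 and 15 the sum was 213, 2635 and 505 CPM, and in lines 13, 13a, 14 and 15 it was 23.1, 464, 15.8 and 28.5 CPM; in line 13, 8 of the 17 markers were at 0. Primary clone 14, with the highest sum, also had the highest Prkd3-/- primary level of 8 of the 10 class I genes. The share of all genes highest in this clone was not counted, so the 8 cannot be set against it. Clone 14 also differed most over all genes, with a chi-square per gene of 377 to clone 13 and 216 to clone 15, against 46.7 between clones 13 and 15. WT line 5 (195 CPM) had H2-K1 at 70.9 CPM beside 72.1 CPM in its primary library (sum 1971 CPM). Line 14, with the lowest sum of all (15.8 CPM), had H2-K1 at 15.5, H2-D1 at 45.7, Psmb8 at 3.24 and Nlrc5 at 0.563 CPM, below all Prkd3-/- primary libraries, and Tap1 at 48.7, Tap2 at 40.9 and Tapbp at 292.6 CPM, above all of them. The part of the macrophage markers in the differences of H2-K1, H2-D1 and Psmb8, which were lower in every Prkd3-/- line, was not tested.

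Endothelial markers (5 genes) summed to 11.6 to 16.4 CPM in WT primary libraries and 0.371 to 1.97 CPM in WT lines, and to 15.2 to 29.0 and 1.55 to 17.6 CPM in Prkd3-/- primary libraries and lines. Epithelial markers (4 genes) summed to 0.145 to 4.30 CPM, dendritic cell markers (5 genes) to 2.42 to 12.5 CPM, T and NK cell markers (7 genes) to at most 0.451 CPM and B cell markers (4 genes) to at most 3.47 CPM in any library, with 1 to 3 of the 5 dendritic cell markers, 5 to 7 of the 7 T and NK cell markers and 0 to 2 of the 4 B cell markers at 0 counts. Their part in the results was not tested.

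**Figure D4:**
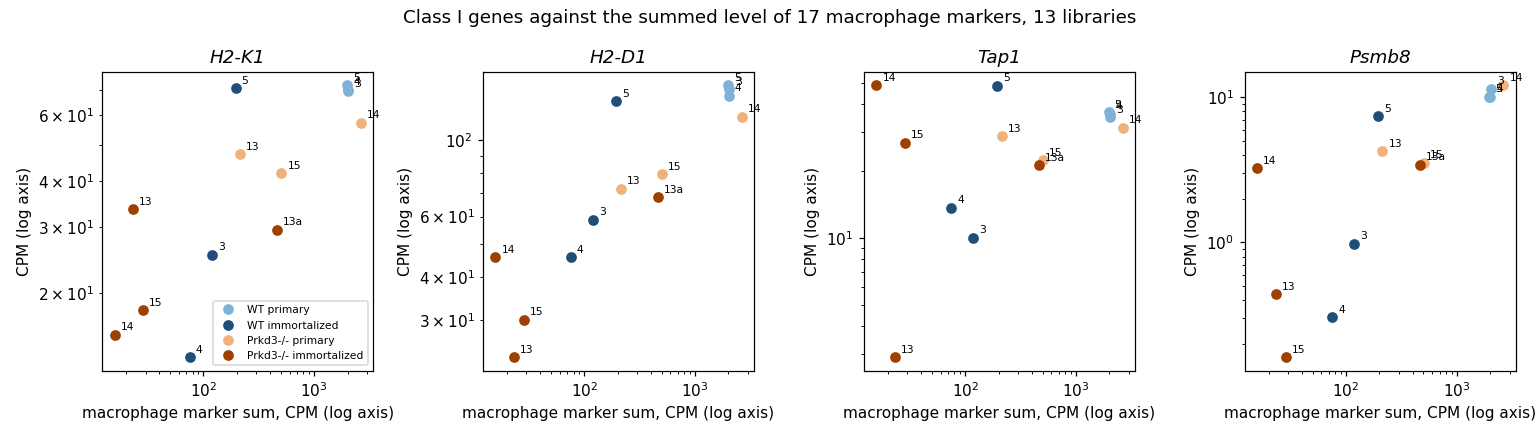
CPM of H2-K1, H2-D1, Tap1 and Psmb8 (y axes, log) against the summed CPM of 17 macrophage markers (x axis, log) in the 13 libraries, coloured by genotype and state and marked with clone or line numbers. Prkd3-/- line 14 sits at the left with a sum of 15.8 CPM, Tap1 at 48.7 CPM and H2-K1 at 15.5 CPM, and WT line 5, at 195 CPM, sits level with the WT primary libraries for H2-K1.

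Of the wider pathway, heavy chains and class I-like genes (18 listed with the 2 above, 13 tested) had 0 called in either genotype, with 10 of 13 negative and a median Log2FC of -0.51 in WT and 12 of 13 negative with a median of -0.37 in Prkd3-/- cells. H2-Q4, a class Ib heavy chain, was at -1.75 (SE 1.22) in WT and -1.68 (SE 0.58, unadjusted p 0.0218) in Prkd3-/- cells, and Hfe, the class I-like regulator of iron uptake, at -0.89 (SE 0.65) and -1.43 (SE 0.41, unadjusted p 0.00964). Mr1, which presents microbial vitamin B metabolites, was at 0.72 (SE 0.14, adjusted p-value 0.0467, edgeR) in WT and -0.07 (SE 0.52) in Prkd3-/- cells.

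The transport and loading genes (10 listed and tested, 4 of them described above) had 0 called and medians of -0.18 in WT and -0.04 in Prkd3-/- cells. The chaperones Pdia3, at -0.23 (SE 0.11) in WT and -0.26 (SE 0.17) in Prkd3-/- cells, and Calr, at -0.21 (SE 0.13) and -0.20 (SE 0.18), and the aminopeptidase Lnpep, at 0.09 (SE 0.10) and -0.30 (SE 0.25), were near 0. The immunoproteasome and activator genes (6 tested, the members Psmb8, Psmb9 and Psmb10 among them) had 0 called and medians of -0.49 in WT and -0.12 in Prkd3-/- cells. Their interferon-inducible activators Psme1 and Psme2 were at -0.37 (SE 0.23) and -0.26 (SE 0.22) in WT and at 0.09 (SE 0.23) and -0.18 (SE 0.33) in Prkd3-/- cells. Psme3, the nuclear activator, was at 0.30 (SE 0.09) and 0.23 (SE 0.28).

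The 14 constitutive 20S genes had 0 called and medians of -0.01 in each genotype. The lowest of them in WT was Psmb2 at -0.31 (SE 0.09). Psma5 at -0.28 (SE 0.10) and Psmb4 at -0.19 (SE 0.10) in WT were also among the 3 with the smallest p. These 3 were at -0.39 (SE 0.23), -0.04 (SE 0.25) and -0.09 (SE 0.18) in Prkd3-/- cells.

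Of 13 regulators of class I genes, Irf8 alone passed, as lower in WT. Irf8, a transcription factor of myeloid cells, was at 13.8, 14.2 and 12.8 CPM in WT primary libraries and 0.209, 0.271 and 0.579 CPM in lines 3, 4 and 5, with a Log2FC of -5.25 (SE 0.43, adjusted p-value 0.00289, edgeR). In Prkd3-/- cells its Log2FC was -3.53 (SE 1.73, adjusted p-value 0.790), and its level in primary clones 13, 14 and 15 (0.807, 15.6 and 1.43 CPM) ranked as the macrophage marker sum did. The median over all 13 regulators, Irf8 and the member Nlrc5 included, was -0.01 in WT and 0.13 in Prkd3-/- cells. Nfya, of the CCAAT-binding complex, was at -0.36 (SE 0.13) in WT and 0.02 (SE 0.23) in Prkd3-/- cells, and Rela, a chain of NF-kappaB, at 0.13 (SE 0.08) and 0.35 (SE 0.15).

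Interferon signal genes (12 tested) and interferon-induced GTPases and chemokines (11 listed, 11 tested in WT and 9 in Prkd3-/- cells) had 0 called, with medians of 0.09 and -0.49 in WT and -0.31 and -0.80 in Prkd3-/- cells. They too differed from line to line. In WT line 5, 10 of 12 signal genes and 9 of 11 induced genes were above every WT primary library, where 41.0% of all genes were. In WT lines 3 and 4, 11 and 10 of the 11 induced genes were below (against 43.1% and 42.7%). Median log2 ratios of the induced genes to the own primary library were -3.62 and -3.50 in lines 3 and 4 and 1.00 in line 5, and in Prkd3-/- lines 13, 13a, 14 and 15 they were -3.19, 0.48, -1.54 and -1.53; 7 to 11 of the 11 genes had over 3 counts in both libraries.

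By gene, Jak2, a kinase of the interferon gamma receptor, was at 45.0 to 48.2 CPM in WT primary libraries and 54.5, 50.2 and 160.7 CPM in the lines, with a WT Log2FC of 0.92 (SE 0.48). Igtp, an interferon-induced GTPase, was at 12.2, 12.2 and 14.3 CPM in WT primary libraries and 0.660, 2.05 and 29.0 CPM in lines 3, 4 and 5, with a Log2FC of -0.28 (SE 1.27), and Gbp7 of the same class had -0.87 (SE 1.20). Cxcl9, a chemokine, had -2.77 (SE 1.09, unadjusted p 0.0451) in WT. The receptor chain Ifngr2 was at 0.48 (SE 0.15) and the kinase Tyk2 at -0.36 (SE 0.17) in WT, and in Prkd3-/- cells they were at -0.39 (SE 0.38) and -0.23 (SE 0.20).

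**Figure D5:**
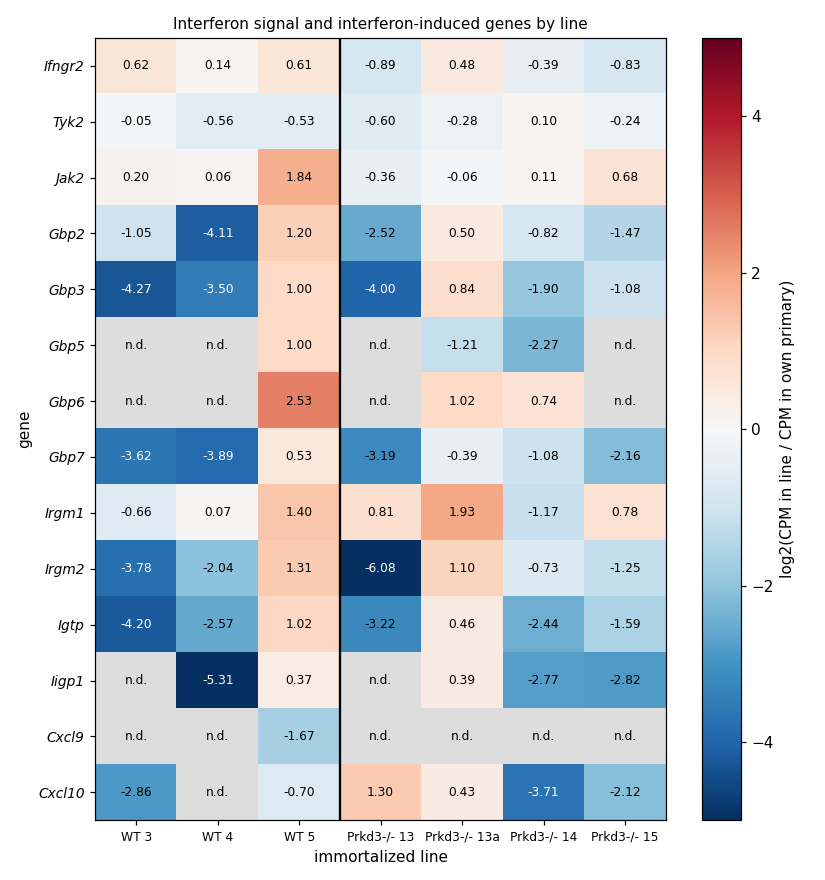
Log2 ratio of CPM in each immortalized line (columns) to the primary library of the same clone number for the 3 interferon signal genes named in the text and 11 interferon-induced genes (rows), with n.d. where either library had 3 counts or fewer. WT line 5 is red for most of the induced genes (median 1.00), while WT lines 3 and 4 and Prkd3-/- line 13 are blue (medians -3.62, -3.50 and -3.19).

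MHC class II genes, which present peptides to helper T cells and are typical of professional antigen-presenting cells, were mostly low. The exception was H2-DMa, a chain of the class II peptide editor, at 7.58 to 11.2 CPM in every library. It was at 2.88 ± 0.181 RPKM in WT primary MEFs, close to Psmb8. However, 10.4% of the exon bases of H2-DMa also lie in Brd2, and a read pair there counts for both genes. The part of Brd2 in this level was not tested. Of 8 listed, 5 were tested and 0 called. The medians were 0.33 in WT and 0.83 in Prkd3-/- cells. Cd74, the invariant chain, had a Log2FC of 0.33 (SE 0.55) in WT and 1.36 (SE 1.05) in Prkd3-/- cells, with 5.66 CPM in line 14 as the highest level. H2-DMb1 was at 0.81 (SE 0.43) and 0.75 (SE 0.98), and H2-Eb1 at -0.51 (SE 0.63) and 0.94 (SE 0.77).

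Per length, B2m was by far the most abundant of the 10 in WT primary MEFs at 507 ± 2.79 RPKM (SD, n = 3). It was followed by H2-D1 at 54.1 ± 1.92, Tapbp at 46.1 ± 1.90, H2-K1 at 24.05 ± 0.442, Psmb10 at 8.83 ± 0.159, Tap2 at 7.47 ± 0.246, Tap1 at 6.58 ± 0.177, Psmb8 at 3.12 ± 0.240, Psmb9 at 0.958 ± 0.137 and Nlrc5 at 0.287 ± 0.00912 RPKM. Each step in this order was larger than the SDs of its neighbours. In Prkd3-/- primary MEFs H2-D1 (34.7 ± 9.29 RPKM) and Tapbp (33.2 ± 8.001) did not differ beyond their spread, nor did Tap2 (5.57 ± 0.818) and Tap1 (5.02 ± 0.838), and the steps from Psmb10 (SD 2.44) to Tap2 and from Psmb8 (1.96 ± 1.40) to Psmb9 (0.795 ± 0.298) also lay within the SDs. In the immortalized groups the SDs were wide, as for H2-D1 at 30.3 ± 17.5 RPKM in WT (n = 3) and 16.2 ± 7.72 in Prkd3-/- lines (n = 4).

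The spread itself differed between the groups. Across WT primary libraries the coefficient of variation of CPM was 0.550% for B2m to 14.3% for Psmb9, and across WT lines 42.6% for Tap2 to 135% for Psmb8. In Prkd3-/- primary libraries it was 14.7% for Tap2 to 71.6% for Psmb8, and in the lines 18.8% for Psmb10 to 109% for Nlrc5. Psmb10 varied more in Prkd3-/- primary libraries (34.8%) than in the lines. The wider spread of the lines was not particular to these genes. Over all genes the median absolute log2 difference between pairs was 0.0841 to 0.104 in WT primary libraries and 0.347 to 0.427 in WT lines. In Prkd3-/- cells it was 0.191 to 0.381 in primary libraries and 0.449 to 0.836 in lines.

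Across the 13 libraries, which share genotypes, states and clone numbers, the log2 CPM of Tap1 and Psmb9 were the most alike of any pair of class I genes (Pearson r = 0.986), and each was the gene most like the other among 21196 genes. These are the neighbours with a shared promoter stretch, and they also share 3.87% of Tap1 and 5.79% of Psmb9 exon bases, where a read pair counts for both. Tap2 and Tapbp had r = 0.923 and H2-D1 and Psmb8 r = 0.901, while H2-K1 had r = 0.81 with H2-D1 and with Psmb8 but 0.33 with Tap1 and 0.25 with Tapbp. For H2-D1, 0.689% of genes had a higher r than Psmb8. With the group means removed r was 0.988 for Tap1 and Psmb9, 0.944 for Tap2 and Tapbp and 0.904 for H2-D1 and Psmb8. For H2-K1 it was then 0.57 with H2-D1, 0.59 with Psmb8, 0.03 with Tap1 and 0.05 with Tapbp. Among all tested genes H2-K1 was most like H2-Q4 (r = 0.970), H2-D1 most like Rassf4 (0.988), B2m most like Parp10 (0.929), Nlrc5 most like Astn2 (0.957), Psmb8 most like Apba2 (0.974) and Psmb10 most like Ccdc152 (0.896). For Tap2 and Tapbp the most alike genes, Gm15821 (0.994) and Gm19412 (0.996), overlap them on the chromosome. The most alike genes were picked as the highest r among 21196 genes over 13 libraries, so their r is a description and not a test.

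Shared sequence limits some of these values. Counting ignored strand, and pairs over several genes counted for each of them, and 29.0% of the exon bases of Tapbp, 18.5% of Tap2 and 14.7% of Psmb8 lie in another annotated gene as well. Of all 100-base windows, the read length, in the transcripts of a gene, 14.8% for Tapbp, 8.05% for Psmb8, 4.99% for Tap2, 3.59% for H2-D1 and 0.957% for H2-K1 occur in another gene, and 0 for B2m, Nlrc5 and Psmb10. These windows come from reference transcripts, and the strain of the MEFs is not given. Loss of reads that differ from the reference was not tested. Genes within 1 Mb of the members were read as a median log2 ratio to primary, relative to all autosomal genes. Around the chromosome 17 members it lay between -0.17 and 0.21 in the 7 lines. It was between -0.04 and 0.17 near B2m, 0.07 and 0.39 near Nlrc5 and -0.17 and 0.26 near Psmb10. The median over all of chromosome 8 ran from -0.02 in Prkd3-/- line 13 to 0.24 in line 14, with 0.20 in WT line 4 and 0.23 in line 15. The part of this shift in the levels of Nlrc5 and Psmb10 was not tested.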

How the data were processed

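Counts of read pairs per gene were deposited by the authors without normalization, in a table for the 6 WT libraries and another for the 7 Prkd3-/- libraries. Per the header of the WT table, featureCounts 2.0.6 counted pairs on Ensembl 102 genes of GRCm38 without strand, giving a pair to every gene it overlapped. The submitters' processing notes name mm10, FastQC 0.12.0, STAR 2.7.10a, SAMtools 1.18 and Subread 2.0.6 for all libraries. The Prkd3-/- table names no program and lists the same genes and lengths. All 13 columns were mapped, and totals ran from 35273408 to 100441756.

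Each genotype was fitted in R 4.3.3 with edgeR 4.0.16 (quasi-likelihood test, TMM, filterByExpr, robust), calling genes at |Log2FC| of at least 1 with an adjusted p-value under 0.01, and the difference between genotypes as an interaction with an adjusted p-value under 0.05. P-values were adjusted over all genes tested. The SE of a Log2FC is its size over the square root of F. Alternatives were DESeq2 1.42.0, limma 3.58.1 with a weight per group, other scalings and filters, a joint fit, a block for the clone number, summed lines 13 and 13a, and each library left out. The scripts were tested on simulated data.

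Sample titles and the study's methods tie each line to the embryo of its clone number. Deviations from group means correlated between -0.0392 and 0.0186 for same-numbered WT libraries and between -0.283 and 0.142 for Prkd3-/- libraries. For libraries of different numbers they correlated between -0.0317 and 0.0617 in WT and between -0.305 and 0.337 in Prkd3-/- cells. By this measure same-numbered libraries were not more alike than others, so the pairing rests on the titles and methods. The members and the gene lists were chosen with earlier results of these data known. The text names the 10 members, from each pathway list the genes that pass in either genotype or else the 3 with the smallest p, and for each member the genes most like it, of 3 ranked, the first.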

Additional observations from a re-analysis of the deposited data

How the results depend on the processing

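The number of all genes called in WT, 361, was 1361 with DESeq2, 157 with at least 10 counts in every library, 198 with limma, 868 at an adjusted p under 0.05, and 0 with the replicate block or in the joint fit of 13 libraries. Leaving out 1 library gave 48 to 743 genes. In Prkd3-/- cells 0 became 190 with DESeq2 and 1 in the joint fit, with 0 to 0 when 1 library was left out, and for the interaction 0 became 37 with DESeq2 and 0 to 2 without 1 library. Class I genes called stayed at 0 in all alternatives of the 3 comparisons, except for 4 in WT without line 5 (range 0 to 4; 0 to 0 in the other comparisons); DESeq2 gave Psmb8 no adjusted p in WT. The replicate block changed no other call.

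Signs near 0 turned. B2m in WT was -0.0447 with limma and -0.0481 with the block. In Prkd3-/- cells Tap2 was 0.00884 with library size alone, 0.00208 in the joint fit and 0.13 with lines 13 and 13a summed, Tap1 0.0975 with these summed, and Tapbp -0.0402 with limma. In the interaction H2-K1 was 0.0104 with library size alone, 0.18 with limma and 0.12 with the block, B2m 0.0122 with limma and 0.0287 with the block, Psmb9 -0.0611 with limma, and Psmb8 0.056 with library size alone, 0.00554 with at least 10 counts, 0.24 with limma, 0.78 with the block and 0.00929 with the lines summed. The cause was not tested.

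Without 1 library the Log2FC of B2m in WT ran from -0.52 to 0.50, and in Prkd3-/- cells B2m ran from -0.26 to 0.15, Psmb10 from -0.23 to 0.27, Tap1 from -0.70 to 0.23, Tap2 from -0.55 to 0.22 and Tapbp from -0.38 to 0.52. Interaction estimates ran from -0.52 to 0.50 for B2m, -0.60 to 0.30 for H2-D1, -0.48 to 0.81 for H2-K1, -0.83 to 1.65 for Nlrc5, -0.54 to 2.14 for Psmb8, -0.48 to 1.39 for Psmb9, -0.12 to 1.45 for Tap1 and -0.28 to 0.65 for Tap2. The ratio of Psmb8 to Psmb5 ran from -2.77 to -1.84, Psmb9 to Psmb6 from -1.11 to -0.43 and Psmb10 to Psmb7 from -0.67 to -0.35, and with lines 13 and 13a summed Psmb8 to Psmb5 was -2.13 with an adjusted p of 0.03. The paired ratio test was chosen after seeing the data. Nlrc5, Psmb8 and Psmb9 rest on 4 to 12 counts in their lowest libraries.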

Other observations

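H2-T23, which encodes the Qa-1 heavy chain, and H2-M3, which presents formylated peptides, were chosen here after their values were seen. H2-T23 was at 16.5, 17.8 and 18.4 CPM in WT primary clones 3, 4 and 5 and at 10.4, 10.8 and 51.1 CPM in the lines. In Prkd3-/- cells it was at 5.91, 15.1 and 4.97 CPM in primary clones 13, 14 and 15 and at 6.11, 15.2, 26.3 and 6.91 CPM in lines 13, 13a, 14 and 15, highest in line 14. H2-M3 was at 2.62, 3.08 and 3.36 CPM in WT primary libraries and 2.14, 0.745 and 3.75 CPM in lines 3, 4 and 5. In Prkd3-/- cells H2-M3 ranged from 0.785 to 4.58 CPM in primary libraries and from 0.363 to 3.58 CPM in lines, so these groups overlapped.

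Lines 13 and 13a share a clone number, and their median absolute log2 difference over 19311 genes was 0.62. Line 13 had Tap1 at 2.90, Psmb9 at 0.172 and Nlrc5 at 0.0763 CPM, where line 13a had 21.2, 1.84 and 3.63 CPM. H2-K1, with 33.6 and 29.6 CPM, and Psmb10, with 10.9 and 12.4 CPM, were closer. No replicate of either line was at hand, so this difference was not tested.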
